A study of Mytilus galloprovincialis with 16 samples.

Results

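Of 1920 mussel cDNA clones on the array, 56 were chosen by their ratios. These shifted between stage 1 and stage 2 of male gonad development and then moved by less than a set limit at the steps to stages 3 and 4. Stage 4 was also compared with stage 1 directly, on arrays that the choice did not use. There neither the clones that had shifted up nor those that had shifted down stood clearly apart from 0. On these arrays limma called 0% of the 1920 clones different, so this was not particular to the 56. The clones were chosen from the log2 ratios that the authors deposited (later over earlier stage, the 2 spots of a clone averaged). A clone was taken when its mean Stage2/Stage1 ratio over 4 arrays was at least 0.3 in absolute log2 value with the same sign on all 4 arrays, and when its mean Stage3/Stage2 and Stage4/Stage3 ratios both stayed below 0.3 in absolute value. This gave 30 clones that were higher at stage 2, called risers here, and 26 that were lower, called fallers. On the log2 scale 1 unit is a doubling.

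Relative mRNA abundance was measured by dual-color hybridization on 16 arrays, in a loop of 4 pairs of stages with 4 arrays each: Stage2/Stage1, Stage3/Stage2, Stage4/Stage3 and Stage4/Stage1. Every channel held mantle RNA of a single male *Mytilus galloprovincialis* from the same lagoon population, sampled in November (stage 1), January (stage 2), February (stage 3) or March (stage 4), with no treatment. Stage and month of sampling therefore cannot be told apart, and for 1 channel of Stage3/Stage2 replicate 1 the labels give 2 different months. The labels do not say which animals were used on more than 1 array, so between 16 and 32 animals stand behind the data and p-values measure the spread between arrays. The later stage was in Cy5 on 2 arrays of each pair and in Cy3 on the other 2.

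In mussels the gonad has no body of its own: follicles of germ cells grow into the connective tissue of the mantle, which also holds muscle, storage cells and the secretory epithelium that builds the shell. As spermatogenesis proceeds, the follicles fill with spermatocytes, spermatids and finally sperm, and storage tissue shrinks as the gonad ripens. The authors divided this course into 4 histological stages (early, development, ripe and spawning), so that a clone that shifts at stage 2 and then holds would follow the opening step of the course and not its peak. In such bulk tissue, fewer cells of a type and less RNA per cell cannot be told apart. No table used here pairs a clone with a gene, so that the clones are given by their IDs, no role can be stated for any of them, and the tissue could not be checked against marker genes.

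The pairs of stages differed in how much moved. The mean log2 ratio had an SD over clones of 0.36 at Stage2/Stage1, 0.50 at Stage3/Stage2, 0.48 at Stage4/Stage3 and only 0.12 at Stage4/Stage1. Arrays of a pair correlated over the 1920 clones with r of 0.31 to 0.74 (Stage2/Stage1), 0.66 to 0.83 (Stage3/Stage2), 0.63 to 0.86 (Stage4/Stage3) and -0.23 to 0.19 (Stage4/Stage1), given as a description because clones on 1 array share its RNA and slide. The Stage4/Stage1 arrays, the only ones the choice of clones did not use, thus shared little of their clone-to-clone differences.

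The measured shift that chose the clones was small. The mean Stage2/Stage1 log2 ratio of the 30 risers ran from 0.30 to 0.81 with a median of 0.40, which is a median of 1.32-fold and at most 1.75-fold. In the 26 fallers it ran from -0.78 to -0.30 with a median of -0.41, a median of 1.33-fold and at most 1.72-fold lower at stage 2. None of the 56 reached a measured 2-fold change. In 22 risers stage 1 was not well above background on any of these arrays, and in 6 fallers stage 2 was not. For these clones the change could be larger than the measured one. These values and those of the next pairs are given as a description, since they defined the sets.

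**Figure D1:**
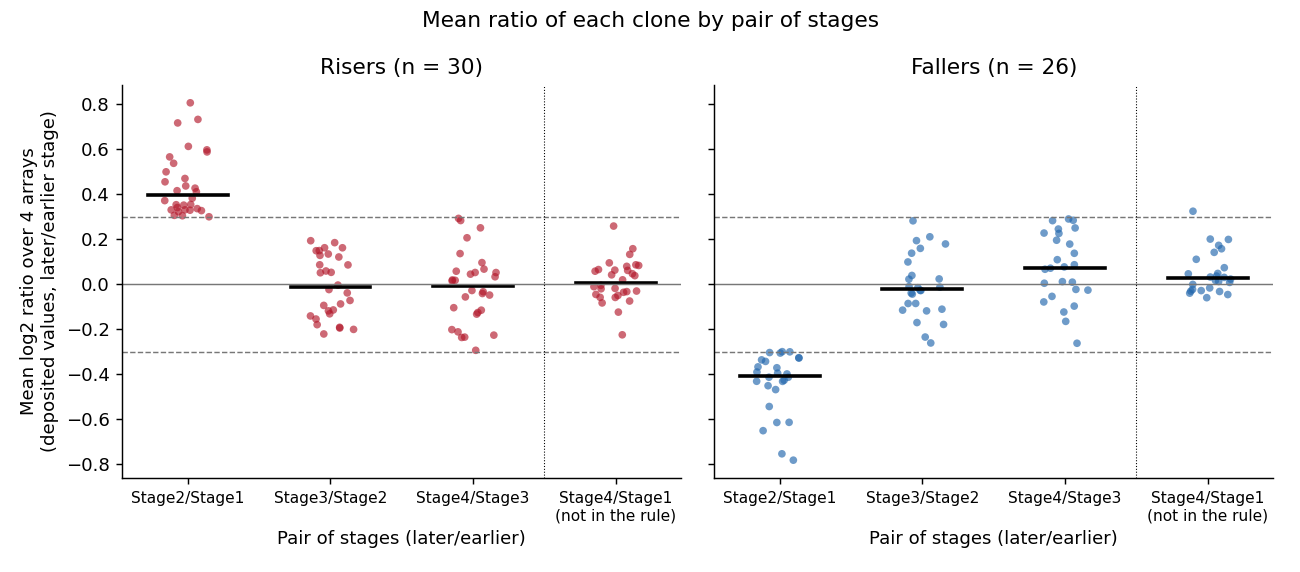
Mean log2 ratio over 4 arrays (y axis, deposited values, later over earlier stage) of each riser (left panel) and faller (right panel) for the 4 pairs of stages (x axis). Black bars are medians, dashed lines the limit of 0.3, and pairs left of the dotted line were used by the rule. Medians were 0.40 for risers and -0.41 for fallers at Stage2/Stage1, and 0.007 for risers and 0.027 for fallers at Stage4/Stage1.

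The deposited Stage2/Stage1 ratios differed between arrays. In the risers the median ratio of an array lay between 0.23 (replicate 1) and 0.50 (replicate 2), and the largest of the 4 ratios fell on replicate 3 in 14 clones and on replicate 2 in 12. In the fallers the median of an array lay between -0.49 (replicate 2) and -0.25 (replicate 3), and replicate 2 held the largest fall in 10 clones. All 4 arrays were individually at 0.3 or more in 6 risers and 3 fallers, and without its own largest array the mean dropped below 0.3 in 17 risers and 17 fallers. The SD over the 4 arrays was larger than the mean itself in 3 risers and 7 fallers. Since the rule asked for the same sign on all 4 arrays, both dye orientations had to show the shift, with medians of 0.40 in risers and -0.44 in fallers with stage 2 in Cy5, and 0.38 in risers and -0.36 in fallers with stage 2 in Cy3. The mean of each orientation reached 0.3 in both dyes in 16 of 30 risers and 7 of 26 fallers.

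After stage 2 the mean ratios stayed below 0.3 in absolute value, as the rule required. At Stage3/Stage2 they ran from -0.22 to 0.19 in risers and from -0.26 to 0.28 in fallers. At Stage4/Stage3 they ran from -0.29 to 0.29 in risers and from -0.26 to 0.29 in fallers. Risers had median deposited ratios of -0.014 at Stage3/Stage2 and -0.007 at Stage4/Stage3, and were about evenly split in sign, with 14 of 30 above 0 at the first step and 15 of 30 at the second. Fallers had a median of -0.021 at Stage3/Stage2, with 16 of 26 below 0. At Stage4/Stage3 their median was 0.074 and 18 of 26 lay above 0, that is towards the stage 1 side. On that pair the deposited medians of single arrays for fallers were 0.028, 0.068, 0.16 and -0.017 in replicate order, with replicate 4 below 0, and those re-derived from the scanner values were 0.018, 0.058, 0.13 and 0.053.

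The limits cut through a continuous range. The smallest shift inside was 0.30031 among risers, and the nearest clone outside that met every other condition had 0.29789. Among fallers these values were 0.300128 inside and 0.29691 outside. For the hold at stage 3 the largest absolute ratio inside was 0.22 in risers and 0.28 in fallers, against 0.32 and 0.31 for the nearest clones outside. For the hold at stage 4 it was 0.294 in risers and 0.290 in fallers, against 0.306 and 0.317 outside.

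Holding was the less frequent course. Of 273 clones that met the stage 2 condition, 217 moved by 0.3 or more at a later step. Over all clones 35.7% moved by that much at Stage3/Stage2 and 32.2% at Stage4/Stage3, so such steps were common on the array. The share of all clones that moved at either step was not counted. Of the 119 raised clones that did not hold, 65 went back at stage 3 and 44 went further up. Of the 98 lowered clones that did not hold, 7 went back at stage 3, 51 went further down and 39 held at stage 3 but went back at stage 4. The 30 risers and 26 fallers are what remained between these courses.

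The risers with the largest deposited mean shift were Myt01-013D09 and Myt01-007D05. From the scanner values, Myt01-013D09 had Stage2/Stage1 log2 ratios of 1.34, 0.66, 0.63 and 0.50 in replicates 1 to 4 (mean 0.78 ± 0.38, SD, n = 4). All 4 lay above 0, with replicate 1 the highest. Stage 2 was well above background on all 4 of these arrays and stage 1 on none, so the shift is a bound of at least 1.71-fold higher at stage 2. At Stage3/Stage2 the clone gave -0.16, -0.39, 0.49 and -0.92, a spread that crossed 0 (mean -0.25 ± 0.58, SD, n = 4). At Stage4/Stage3 it gave 0.32, 0.19, 0.48 and 0.21, all above 0 (mean 0.30 ± 0.14, SD, n = 4). By these scanner values the clone was just past the limit of 0.3 at this step, against 0.21 in the deposited values that chose it.

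Myt01-007D05 had Stage2/Stage1 ratios of 0.66, 0.98, 0.59 and 0.50 (mean 0.68 ± 0.21, SD, n = 4), and here too stage 1 stayed below the background criterion on all 4 arrays. The bound was at least 1.58-fold higher at stage 2. Its Stage3/Stage2 ratios were 0.10, -0.13, 0.19 and 0.17 and its Stage4/Stage3 ratios 0.098, -0.38, 0.097 and 0.13. Both sets straddled 0, and replicate 2 was the lowest array in each.

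Among the fallers, Myt01-016C10 had the largest shift and the tightest replicates of the 4 clones at this step, with Stage2/Stage1 ratios of -0.84, -0.83, -0.77 and -0.57 (mean -0.75 ± 0.13, SD, n = 4). Stage 2 was well above background on 2 of these arrays and stage 1 on 2. At Stage3/Stage2 it gave 0.099, 0.082, -0.14 and 0.11, and at Stage4/Stage3 0.077, 0.003, 0.041 and 0.27. On the Stage4/Stage3 arrays both channels stayed below the background criterion throughout, so its hold at stage 4 was read from dim spots.

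Myt01-004G02 was more scattered, with Stage2/Stage1 ratios of -0.73, -1.20, -0.14 and -0.86 (mean -0.73 ± 0.44, SD, n = 4). All 4 were below 0, but replicate 3 was close to it. Stage 2 was below the background criterion on all 4 arrays and stage 1 above it on 2, which gave a bound of 1.61-fold or more lower at stage 2. This bound averages all 4 arrays. On replicates 1 and 3 neither stage passed the criterion, so it rests partly on ratios that carry no fold. Its Stage3/Stage2 ratios of -0.17, -0.14, 0.31 and -0.65 crossed 0, and its Stage4/Stage3 ratios of -0.039, 0.096, 0.032 and -0.003 came from channels that stayed below the criterion throughout.

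**Figure D2:**
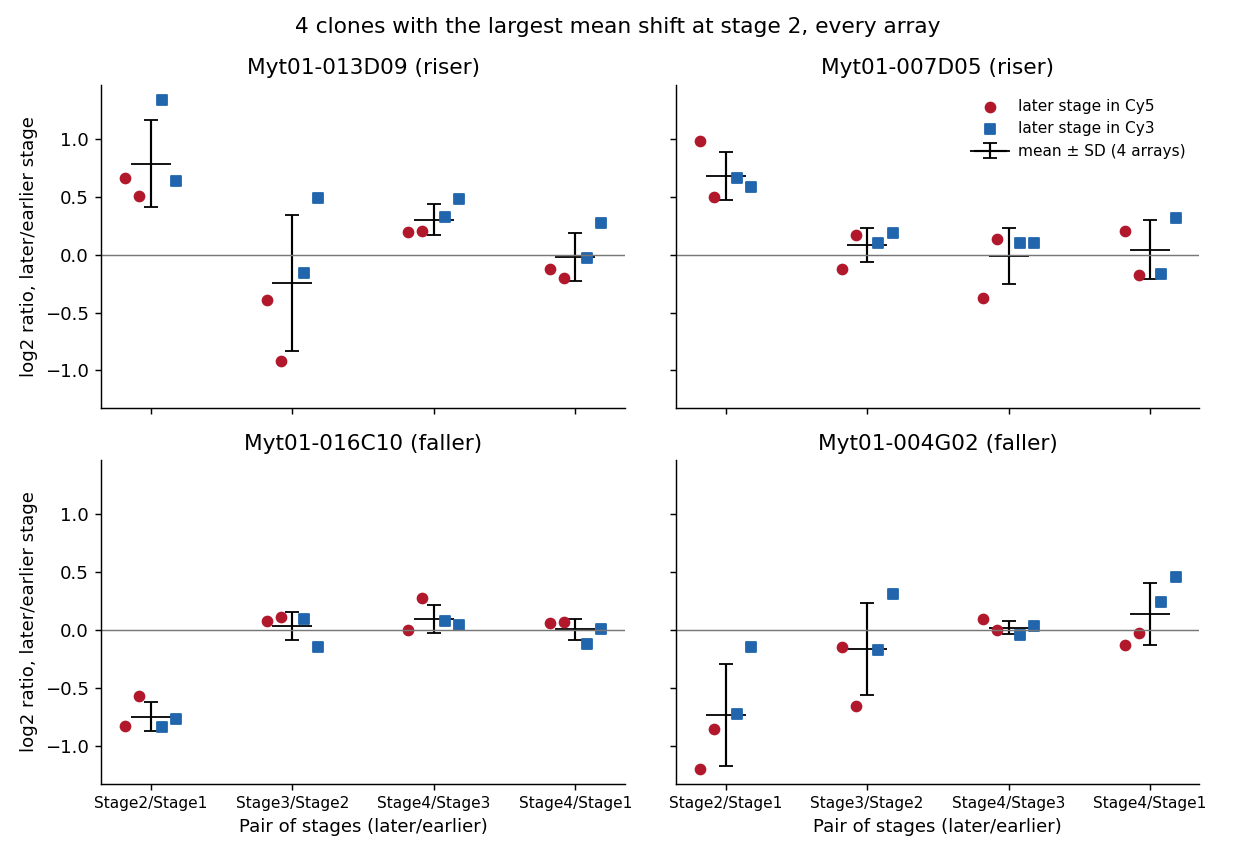
Log2 ratio (y axis, later over earlier stage, from scanner values) of the 2 risers and 2 fallers with the largest deposited shift, on each of the 16 arrays, by pair of stages (x axis). Circles are arrays with the later stage in Cy5, squares with it in Cy3, and bars the mean ± SD of 4 arrays. Every Stage2/Stage1 point lies on 1 side of 0, and the Stage4/Stage1 points of all 4 clones lie on both sides of it.

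If a clone shifted at stage 2 and did not move afterwards, stage 4 should differ from stage 1 by about the same amount. The rule asked for less: each later step could move by up to 0.3, and the choice favoured the size of the measured shift. The deposited steps from stage 1 to stage 4, added up, ran from -0.12 to 0.83 in risers. In fallers they ran from -0.85 to 0.10. A clone that met the rule could thus differ little between stage 4 and stage 1. The Stage4/Stage1 arrays compared stage 4 with stage 1 directly. By limma on these 4 arrays alone, 0 of 30 risers and 0 of 26 fallers were called at an adjusted p below 0.05, where 0% of the 1920 clones were called higher and 0% lower. At an unadjusted p below 0.05, 22 clones were higher (1.15%) and 10 lower (0.521%). None of them was a riser, and the single faller among them, Myt01-004A02 (chosen after its values were seen), was higher at stage 4, against the direction of its shift (0.18 ± 0.07, SE, limma adjusted p = 0.89).

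The sizes were small as well as uncalled. The Stage4/Stage1 log2 ratio of the risers ran from -0.17 to 0.26 with a median of 0.023, against a median of 0.006 over all clones. That of the fallers ran from -0.077 to 0.32 with a median of 0.018. Of the risers 18 of 30 were above 0 (60%), where 52.7% of all clones were. Of the fallers 9 of 26 were below 0 (34.6%), where 47.3% of all clones were. In 13 of the 26 both stages were below the background criterion on all 4 of these arrays (38.2% of all clones). No direction is therefore read from the signs of the fallers. No riser was above 0 on all 4 arrays (4.95% of all clones were) and no faller below 0 on all 4 (5% of all clones were).

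The precision of this comparison bears on how it can be read. The 95% interval of the Stage4/Stage1 ratio ended below 0.3 in 21 of 30 risers, where it did so in 78.3% of all clones. It ended above -0.3 in 25 of 26 fallers, where it did so in 80.6% of all clones. The interval reached 0.22 to either side of the mean at the median of the risers and 0.18 at the median of the fallers. A rise of 0.3 or more was thus inside the interval in 9 risers and a fall of that size in 1 faller. In 13 fallers and 2 risers both stages were below the background criterion on all 4 of these arrays. For these clones an interval close to 0 does not exclude a change of that size.

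**Figure D3:**
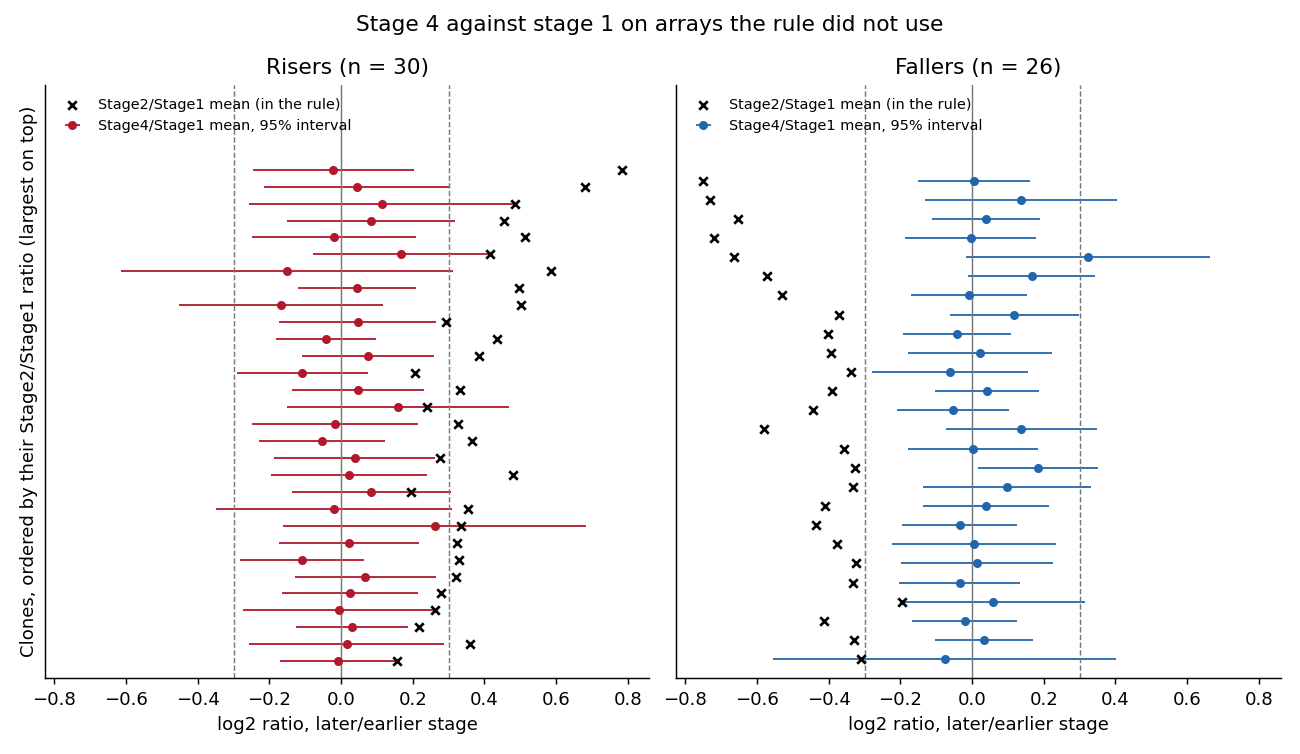
Stage4/Stage1 log2 ratio with its 95% limma interval (circles and bars, x axis) for each riser (left) and faller (right), beside the same clone's Stage2/Stage1 mean (crosses), both from scanner values, ordered from the bottom by deposited Stage2/Stage1 ratio. Dashed lines mark 0.3 and -0.3. The circles centre near 0 in both panels (medians 0.023 and 0.018), whereas the crosses lie to the right in risers and to the left in fallers.

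The 4 clones named above differed in how far these arrays could measure them. Myt01-013D09 gave Stage4/Stage1 ratios of -0.13, -0.027, 0.27 and -0.20 (mean -0.021, 95% interval -0.25 to 0.20). Myt01-007D05 gave 0.20, -0.17, 0.32 and -0.18 (mean 0.044, interval -0.22 to 0.30). Neither riser kept a sign across arrays, and the limma adjusted p was 0.97 for the first and 0.94 for the second. Myt01-016C10 gave 0.060, -0.12, 0.012 and 0.072 (mean 0.005, interval -0.15 to 0.16), with both stages below the background criterion on all 4 arrays, so that the ratio carries no fold. Myt01-004G02 gave -0.13, 0.24, 0.46 and -0.025 (mean 0.14, interval -0.13 to 0.41, limma adjusted p = 0.89), with stage 4 well above background on 1 array and stage 1 on none. For these fallers a ratio near 0 does not show that the stages were alike.

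The arrays of this pair also differed among themselves. In replicate 3, 24 of 30 risers were above 0 with a median of 0.19, whereas in replicate 2 only 9 were, with a median of -0.034. Without replicate 3 the risers above 0 numbered 11 of 30 and their median was -0.031. Fallers had medians between 0.009 and 0.074 on the 4 arrays. When only clones that passed the criterion at both stages on each of the 4 arrays were kept, 7 risers and 3 fallers were left, of which 3 risers were above 0 (46.1% of the 516 such clones were) and 1 faller below 0 (53.9% were). Of these 516 clones, 0% were called higher and 0% lower.

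The 3 steps from stage 1 to stage 4, added up, gave other values than the direct ratio. The sum of a riser's 3 deposited steps had a median of 0.45, and 20 of 30 sums were at 0.3 or more in absolute value, whereas the deposited Stage4/Stage1 ratio had a median of 0.007 and reached 0.3 in 0 of 30. In fallers the sum had a median of -0.37 and 15 of 26 were at 0.3 or more in absolute value, against a direct median of 0.027 and 1 of 26. These sums come from the arrays that the rule used, so the choice of clones favoured their size and side, and they are a description. A sum of 3 means also carries more noise than 1 mean. Such a gap was not limited to risers and fallers. Over all clones 44.9% of the sums and 3.49% of the direct ratios reached 0.3 in absolute value.

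The stages were next compared by their single channels. After the 2 channels of all arrays were brought to a common distribution of average intensity, each clone's log2 level in each stage of each set of arrays was taken relative to its own mean over these 8 sets. In risers the stage 1 channel of the Stage2/Stage1 arrays stood at a median of -0.35, whereas the other 7 sets lay between 0.010 and 0.13. In fallers it stood at 0.47, whereas the other 7 lay between -0.16 and 0.029. In the clones that shifted at stage 2 but did not hold, this channel stood at -0.47 (119 raised) and 0.62 (98 lowered). These clones met the same stage 2 condition, which uses the ratio to this channel. Its distance from the other sets was thus favoured by the choice in all of these groups, and is given as a description. Stage 1 on the Stage4/Stage1 arrays had medians of 0.13 in risers and -0.046 in fallers. In risers this was the highest of the 8 medians, and in fallers it lay within the range of stages 2 to 4. Stage 2 on the Stage2/Stage1 arrays itself was close to the mean of each clone, at 0.022 in risers and 0.029 in fallers.

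**Figure D4:**
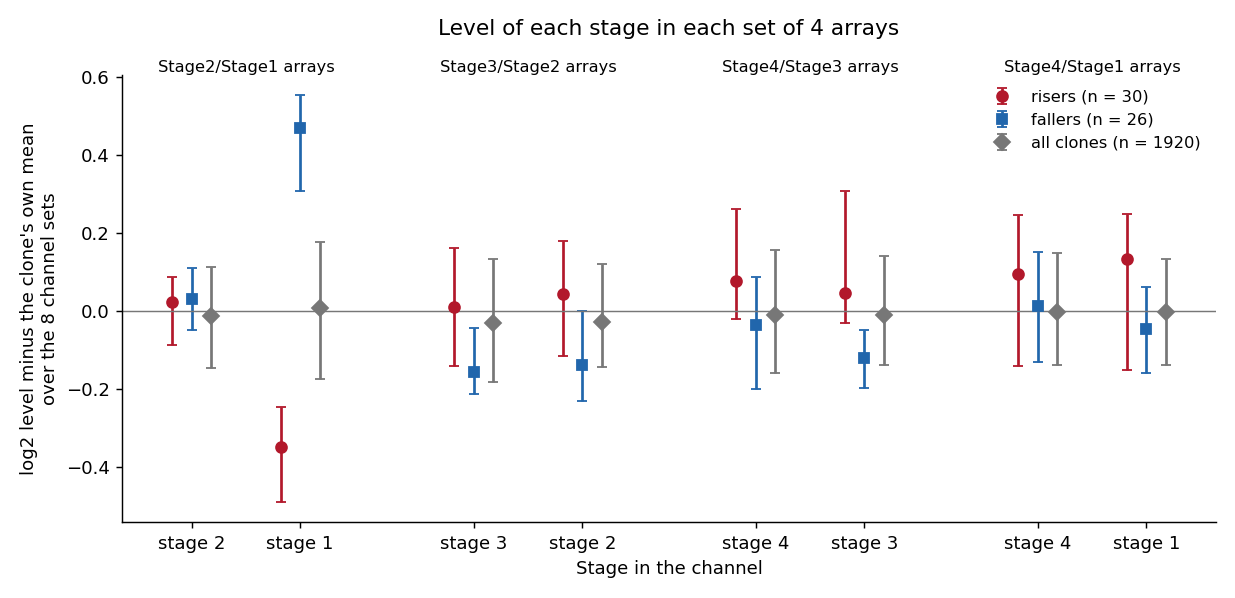
Log2 level relative to the clone's own mean over 8 channel sets (y axis) for each stage within each set of 4 arrays (x axis). Symbols are medians and bars the 25th to 75th percentile over 30 risers, 26 fallers and 1920 clones. Stage 1 on the Stage2/Stage1 arrays is at -0.35 in risers and 0.47 in fallers, apart from every other set. The rule used the ratio to this channel, so the choice of clones favours that distance. Stage 1 on the Stage4/Stage1 arrays is not apart.

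Clone by clone, the stage 1 level on the Stage2/Stage1 arrays was the lowest of the 8 sets in 21 of 30 risers (16.1% of all clones) and the highest in 23 of 26 fallers (21.1% of all clones), which the choice of clones favours. It was lower than stage 1 on the Stage4/Stage1 arrays in 25 of 30 risers (48.1% of all clones), with a median difference of -0.44 over the 30. It was higher in 24 of 26 fallers (51.9% of all clones), with a median difference of 0.52 over the 26, beside 0.017 over all clones. Among the clones that did not hold, it was lower in 92 of 119 raised ones (median difference -0.40). In the lowered ones it was higher in 83 of 98 (median difference 0.67). The first channel of this comparison was one the rule used, so these counts too are a description. In normalized intensity, Myt01-007D05 averaged 242 at stage 2 and 151 at stage 1 on the Stage2/Stage1 arrays, but 231 at stage 4 and 224 at stage 1 on the Stage4/Stage1 arrays (geometric means, n = 4 arrays). Myt01-016C10 averaged 139 at stage 2 and 234 at stage 1 on the Stage2/Stage1 arrays, but 117 at stage 4 and 116 at stage 1 on the Stage4/Stage1 arrays. Several of these averages come from dim spots. Stage 1 of Myt01-007D05 was below the background criterion on all 4 Stage2/Stage1 arrays. For Myt01-016C10 both stages were below it on all 4 Stage4/Stage1 arrays, and each stage passed on 2 Stage2/Stage1 arrays. Whether the animals used for stage 1, their RNA or these arrays differed was not tested, and the labels do not tell them apart.

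A comparison of stage 2 with stage 1 can also be made without the Stage2/Stage1 arrays, from the level of stage 2 on the Stage3/Stage2 arrays and that of stage 1 on the Stage4/Stage1 arrays. It was chosen after the data had been seen, it rests on levels set across arrays, and the Stage3/Stage2 arrays entered the rule through their ratios. In this separate-channel limma fit the difference had a median of -0.051 in risers, and 14 of 30 were higher at stage 2 (46.5% of all clones were). In fallers it had a median of -0.14, and 17 of 26 were lower at stage 2 (53.5% of all clones were), beside a median of -0.033 over all clones. At an adjusted p below 0.05, 3 risers were called higher (5.68% of all clones were) and 4 lower (5.36% were), and 1 faller was called lower. None of the 4 clones with the largest shift was called, with limma adjusted p of 0.53 to 0.96.

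Detection above background was read from the same spots without normalization. A reading was counted as well above background when at least 1 of the 2 spots exceeded the local background by 2 of its SDs. On the Stage2/Stage1 arrays, which chose the risers for a stage 2 channel brighter than stage 1, 73.3% of the riser readings passed at stage 2 and 17.5% at stage 1, against 48.6% at stage 2 and 30.7% at stage 1 for all clones. On the Stage4/Stage1 arrays 60% of the riser readings passed at stage 4 and 75% at stage 1, against 40.2% at stage 4 and 46.3% at stage 1 for all clones. Stage 1 of the risers was thus mostly below the criterion on one set of arrays and mostly above it on the other.

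**Figure D5:**
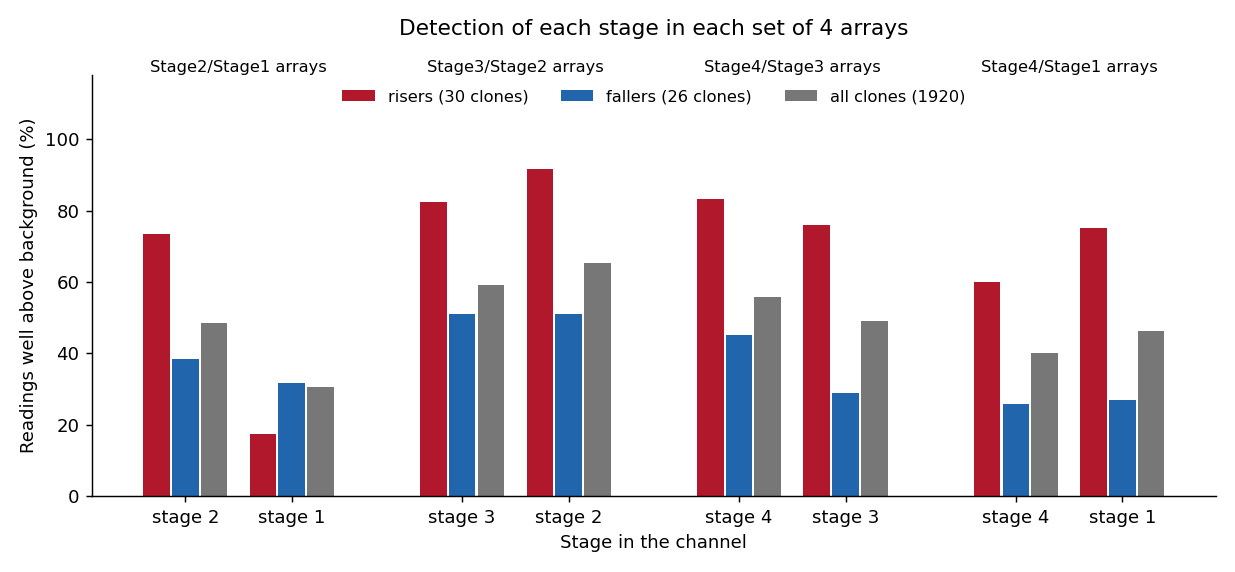
Share of readings well above background (y axis, percent of clone readings over 4 arrays) for each stage within each set of arrays (x axis), in risers, fallers and all clones. In risers stage 1 passed in 17.5% of readings on the Stage2/Stage1 arrays and in 75% on the Stage4/Stage1 arrays.

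For 22 of 30 risers stage 2 was well above background on at least 1 of the 4 Stage2/Stage1 arrays and stage 1 on none, so that their rise is only a bound (18.6% of all clones were of this kind). The bound exceeded 1 in 16 of them, with a median of at least 1.17-fold and a highest of at least 1.71-fold. Only 3 risers were above the criterion in both channels on all 4 of these arrays (10%, against 19.0% of all clones).

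Fallers passed the criterion less often than all clones in every channel set but one. On the Stage2/Stage1 arrays 38.5% of their readings passed at stage 2 and 31.7% at stage 1, against 48.6% at stage 2 and 30.7% at stage 1 for all clones, so that relative to all clones they passed less often at stage 2 only. On the Stage3/Stage2 arrays 51.0% passed at either stage, against 59.1% at stage 3 and 65.2% at stage 2 for all clones. In 6 fallers only stage 2 was below the criterion on all 4 Stage2/Stage1 arrays (2.19% of all clones), in 4 only stage 1 was (18.6%) and in 4 both were (35.5%). For those 6 the fall is only a bound, which exceeded 1 in 4 of them (median at least 1.21-fold, highest at least 1.61-fold). The highest is that of Myt01-004G02, which rests partly on arrays where neither stage passed. For the 4 with only stage 1 below the criterion, detection ran opposite to the fall. On the Stage4/Stage1 arrays 26.0% of faller readings passed at stage 4 and 26.9% at stage 1. In 13 of 26 fallers both stages were below the criterion on all 4 of those arrays (38.2% of all clones), and for these the ratio near 0 does not measure a difference.

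The duplicate spots of a clone give a technical check. Over the Stage2/Stage1 arrays both spots had the same sign in 30 of 30 risers and 26 of 26 fallers, as an average of them chose the clones, against 75.3% of all clones. The median absolute difference between spots was 0.11 in risers and 0.17 in fallers, against 0.091 over all clones. The spots correlated over clones with r of 0.53 in risers and 0.011 in fallers, against 0.87 over all clones, where each set spans only the narrow range of ratios that the rule left in it. On the Stage4/Stage1 arrays both spots had the same sign in 18 of 30 risers (60%) and 11 of 26 fallers (42.3%), against 66.4% of all clones. Both spots of every clone lay in the same block of the array, so that they share any local artefact of the slide.

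The 56 clones were spread over many plates. Risers came from 14 and fallers from 14 of the 20 clone plates of 96 clones. Plates 1, 2 and 20 held no member, and plates 13 and 16 held the most, with 7 and 6. Every block of the 16 on the array held between 1 and 6 of them. Whether this departs from an even spread was not tested.

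In the model of the whole loop, with stages 2, 3 and 4 relative to stage 1 on all 16 arrays, 10 of 30 risers were called higher at stage 2 (5.31% of all clones were) and 9 of 26 fallers lower (3.44% were). At stage 3, 6 risers were called higher (12.1% of all clones were) and 6 fallers lower (10.1% were). At stage 4 none was called, nor was any other clone (0% higher and 0% lower), while at an unadjusted p below 0.05 there were 2 risers higher and 0 fallers lower (2.55% of all clones higher and 6.93% lower). Since 12 of the 16 arrays chose the clones, these counts are given as a description. The median fitted change of the risers was 0.27 at stage 2, 0.20 at stage 3 and 0.12 at stage 4, and that of the fallers -0.30, -0.23 and -0.073. Myt01-007D05 was fitted at 0.50 ± 0.12 at stage 2, 0.41 ± 0.14 at stage 3 and 0.22 ± 0.12 at stage 4 (SE), and Myt01-016C10 at -0.59 ± 0.09, -0.40 ± 0.10 and -0.15 ± 0.09, so that in both the fitted change was smallest at stage 4. The model takes the 4 pairs as adding up around the loop, and spreads the gap described above over all stages.

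The choice of clones depended on the processing. With ratios re-derived from the scanner values by print-tip loess, 25 clones met the rule as risers and 35 as fallers, of which 16 and 16 were among the 30 risers and 26 fallers. Without background correction 14 and 14 clones met it, with 4 risers and 4 fallers in common with the deposited choice.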

How the data were processed

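The scanner intensity values of each array were deposited by the authors as raw foreground means with local background medians and SDs in both dyes, read with GenePix. The authors also deposited a table of log2 ratios per spot, made with offset background subtraction and loess in limma (version not given in the sources used here). Set against ratios re-derived from the scanner values, the table gave regression slopes between 0.965 and 1.01 and correlations between 0.982 and 0.999 per array, which settled its scale and direction. Column medians were -0.042 to 0.05.

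The rule for the clones was applied to the deposited log2 table, and values named as deposited, the shift medians by array and dye, and the plot of means by pair of stages are from it. Tests, levels and single-array values not so named were re-derived: normexp (offset 50), print-tip loess, duplicate spots averaged, ratios turned to later over earlier stage, limma 3.58.1 (R 4.3.3) with two-sided tests and Benjamini-Hochberg adjustment over 1920 clones at 0.05. Levels were quantile normalized on average intensity and fitted by channel. A channel below the background criterion on all 4 arrays gives a bound, taken per array as the higher of the lowest passing level and the clone's own level, with dyes balanced 2 and 2 within each pair. Fits were tested on simulated data. The clones, lists and tests were chosen with earlier results of these data known. Named clones are the 2 risers and 2 fallers with the largest deposited shift. Gene keyword lists could not be applied. Alternatives covered normalization, background, limits, dim clones, the replicate block and leaving out arrays. The number of arrays limits precision. Figures used matplotlib 3.10.9.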

Additional observations from a re-analysis of the deposited data

Results flagged for a closer look

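In 24 sets of 4 arrays examined (the median of risers and of fallers and the 4 clones named above, in each pair of stages), 2 held an array far from the other 3, and chance flags about 1 in 20 such sets. Myt01-007D05, a riser, had a Stage4/Stage3 log2 ratio of -0.38 on replicate 2, whereas its next lowest array was at 0.097 and the highest at 0.13. Myt01-016C10, a faller, had a Stage3/Stage2 log2 ratio of -0.14 on replicate 3, whereas its next lowest array was at 0.082 and the highest at 0.11. These ratios were re-derived from the scanner values. In the deposited values Myt01-007D05 gave 0.09, -0.43, 0.045 and -0.16 at Stage4/Stage3 in replicate order. There Myt01-016C10 gave 0.045, 0.35, -0.205 and 0.20 at Stage3/Stage2. In neither did a single array lie as far from the rest. What set the flagged arrays apart was not tested.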

How the results depend on the processing

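Which clones met the rule moved most with the processing. Risers numbered 14 without background correction and 55 with median centring, and 27 to 50 with 1 array left out (50 without Stage2/Stage1 replicate 1, 46 without replicate 4). Fallers numbered 41 with loess over the whole array, 14 without background correction, 212 with median centring, 44 with scaling between arrays, and 22 to 63 with 1 array left out (63 without Stage2/Stage1 replicate 1, 55 without replicate 3, 41 without replicate 4). Fewer arrays make the condition of equal signs easier to meet.

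On the Stage4/Stage1 arrays no riser or faller was called under any of 12 settings, and no other clone was. The median ratio stayed between -0.031 and 0.056 in risers and between 0.001 and 0.045 in fallers. Risers above 0 numbered 3 of the 7 bright clones, and 11 to 20 of 30 with 1 array left out. Fallers below 0 numbered 1 of the 3 bright clones, and 7 to 12 of 26 with 1 array left out. Risers whose interval ended below 0.3 numbered 12 of 30 with scaling between arrays and 10 to 27 with 1 array left out (13 without Stage4/Stage1 replicate 1, 10 without replicate 4). By the separate-channel fit 1 to 3 risers were called higher with 1 array left out (1 without Stage3/Stage2 replicate 2 or 4 or Stage4/Stage1 replicate 1).

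In the loop model, risers called higher at stage 2 numbered 5 without background correction, 6 with scaling, 16 without the 4 Stage4/Stage1 arrays, 0 by log odds (B) above 0, and 2 to 11 with 1 array left out (2 without Stage2/Stage1 replicate 2, and 4 without any one of the other Stage2/Stage1 arrays). Fallers called lower numbered 5 with median centring, 3 by log odds, and 3 to 11 with 1 array left out (3 without Stage2/Stage1 replicate 2, 5 without replicate 1). At stage 3, risers numbered 0 with median centring, 3 with scaling, 11 without the Stage4/Stage1 arrays, 0 by log odds, and 2 to 7 with 1 array left out (2 without Stage2/Stage1 replicate 2 or Stage3/Stage2 replicate 2 or 3). Fallers numbered 2 with loess over the whole array, 3 without background correction, 0 with median centring, 2 with scaling, 0 by log odds, and 1 to 7 with 1 array left out, where 12 of the 16 arrays each moved the count to 3 or fewer. Without the Stage4/Stage1 arrays 7 risers were called higher and 3 fallers lower at stage 4. The causes were not tested.

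Replicate numbers were not taken as pairing the arrays, since same-numbered arrays of different pairs of stages had correlated deviations above 0.1 in only 12 of 24 comparisons (-0.24 to 0.32), although in 6 of 6 for replicate 4 (0.11 to 0.32). With the replicate block in the loop fit 2 fallers were called lower at stage 3, and the block moved no other count of calls by over 1.5 times. On the Stage4/Stage1 arrays 0 risers and 0 fallers were called with the replicate block.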
